A study of Drosophila melanogaster with 12 samples.

Results

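The genes described here encode the proteins of the cytosolic ribosome. Members were the probe sets whose only current gene symbol begins with RpL (large subunit) or RpS (small subunit). Of 10843 genes that the array measured under 1 symbol, 37 were members, each through 1 probe set, while RefSeq lists 92 fly genes of this symbol pattern. The RNA was taken from adult heads of the Drosophila melanogaster strain cn bw, which lacks both eye pigments through mutations in cinnabar and brown. All flies had been reared in constant darkness, at first at 25 °C and then in a daily alternation of 12 h at 18 °C and 12 h at 25 °C, and were collected after the temperature had been left at 25 °C. The 12 Affymetrix Drosophila Genome 1 arrays, 1 per collection, ran every 4 h from AA2 to AA46, where AA counts hours from the start of the subjective cryophase, which is the formerly cold span of 12 h, and the subjective thermophase is the formerly warm span after it. Day 1 held AA2 to AA22 and day 2 held AA26 to AA46, with 6 arrays a day, so that each time of day (2, 6, 10, 14, 18 and 22 h) had 1 array of each day. Heads were pooled within a collection, and no label states that the flies of each collection were reared apart, so a p-value here measures only how far these arrays spread, which may be technical. Strain, darkness and temperature were the same on both days, and by the labels the days differ in the time since the temperature cycle ended. By the methods of the study, flies were harvested in turn after release, so those of day 2 would also be older. The design cannot tell age from time since the cycle. A pooled head sample cannot tell fewer cells of a type from less RNA per cell.

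A ribosome is built from a small subunit, which reads the mRNA, and a large subunit, which joins the amino acids. Each contains ribosomal RNA and many proteins, most of them needed in a single copy per ribosome. Their mRNAs are short, very abundant in nearly all cells, and in flies as in mammals carry a pyrimidine tract at the start that places their translation under the TOR pathway. Some fly ribosomal protein genes have a second, usually far less abundant copy, often most active in the germ line. A few more genes bear ribosomal protein names because they resemble one, and in yeast the relatives of RpL24-like and RpLP0-like, Rlp24 and Mrt4, act in ribosome assembly. By these roles the members fell into 27 core proteins (16 of the large and 11 of the small subunit), 7 paralogues and 3 genes with a symbol ending in -like that are no paralogue copy. Both copies were on the array for RpL10Ab and RpL10Aa, RpL37-1 and RpL37-2, and RpS28b and RpS28a. Probe sequences were not used here, so binding of a probe set to a related copy or, for the ubiquitin fusion genes RpS27A and RpL40, to other ubiquitin genes was not checked.

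Values were log2 levels made by RMA, and 35 of the 37 members passed a filter on low values. The exceptions were the paralogues RpL10Aa, with a mean of 2.51 log2, and RpL22-like, with 3.17 log2. AA46 stood apart from the other arrays: its mean correlation with them across tested probe sets was 0.989, against 0.994 or more for any other, and the probe sets for 18S rRNA, a control, averaged 4.09 log2 on it but 2.78 to 2.99 log2 on the rest. All 8 photoreceptor and eye markers measured passed the filter. Of these, 3 were called higher and 0 lower on day 2 (trp, trpl and inaD, differences of 0.23 to 0.25 log2), and the summed linear level of the list was 22060 to 24140 on day 1 and 23930 to 25920 on day 2. Of 9 fat body and yolk markers, 2 were called lower (the female-biased secreted factor gene fit by 2.51 log2 and the yolk protein gene Yp2 by 0.23 log2) and 0 higher, with sums of 58900 to 64980 and 52200 to 62130. In the gut and salivary list 1 of 7 was called higher, and none of 8 neuron, 7 glia, 6 muscle, 6 germ line and 5 haemocyte markers was called. Of all tested probe sets, 1.20% were called lower and 0.412% higher. At an unadjusted limma p under 0.05, 4 fat body and yolk, 3 muscle and 2 neuron markers were lower (7.26% of all). At that threshold 3 eye markers and 1 each of the neuron, glia, gut and salivary, germ line and haemocyte markers were higher (7.50% of all). The part of such shifts in the values below was not tested.

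The comparison of day 2 with day 1 at matched times asks whether the transcripts held their level as the flies grew older and went further from the last temperature cycle. Many ribosomal protein transcripts were lower on day 2. Of 35 tested members, 12 were called lower and 0 higher (limma with time of day as a block, adjusted p under 0.05 over 11156 probe sets), where 1.20% of all tested probe sets were called lower and 0.412% higher. The count of members called lower was 7 when the 10 h or the 18 h pair of arrays was left out, and RpL37-1 was called higher in 4 alternative fits (array weights, quantile normalization, a filter at the 50th percentile, a prior trend). At an unadjusted p under 0.05 the counts were 18 lower and 2 higher, against 7.26% and 7.50% of all tested probe sets. The median difference of the members was -0.11 log2, against 0.00 log2 over all tested probe sets, and 29 of 35 had a lower mean on day 2 (48.9% of all). All 6 arrays of day 2 lay below all 6 of day 1 for 13 members (1.75% of all), for 15 when AA46 was left out of day 2 (2.38% of all), and 16 members were lower at each of the 6 times (4.40% of all). The calls lay nearly all in core proteins, with 11 of 27 called, 0 of 5 tested paralogues and 1 of 3 -like genes. Within the core, 6 of 11 small subunit genes were called (median -0.29 log2, all 11 lower on day 2) and 5 of 16 large subunit genes (median -0.09 log2, 13 of 16 lower). Whether the subunits differ was not tested.

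**Figure D1:**
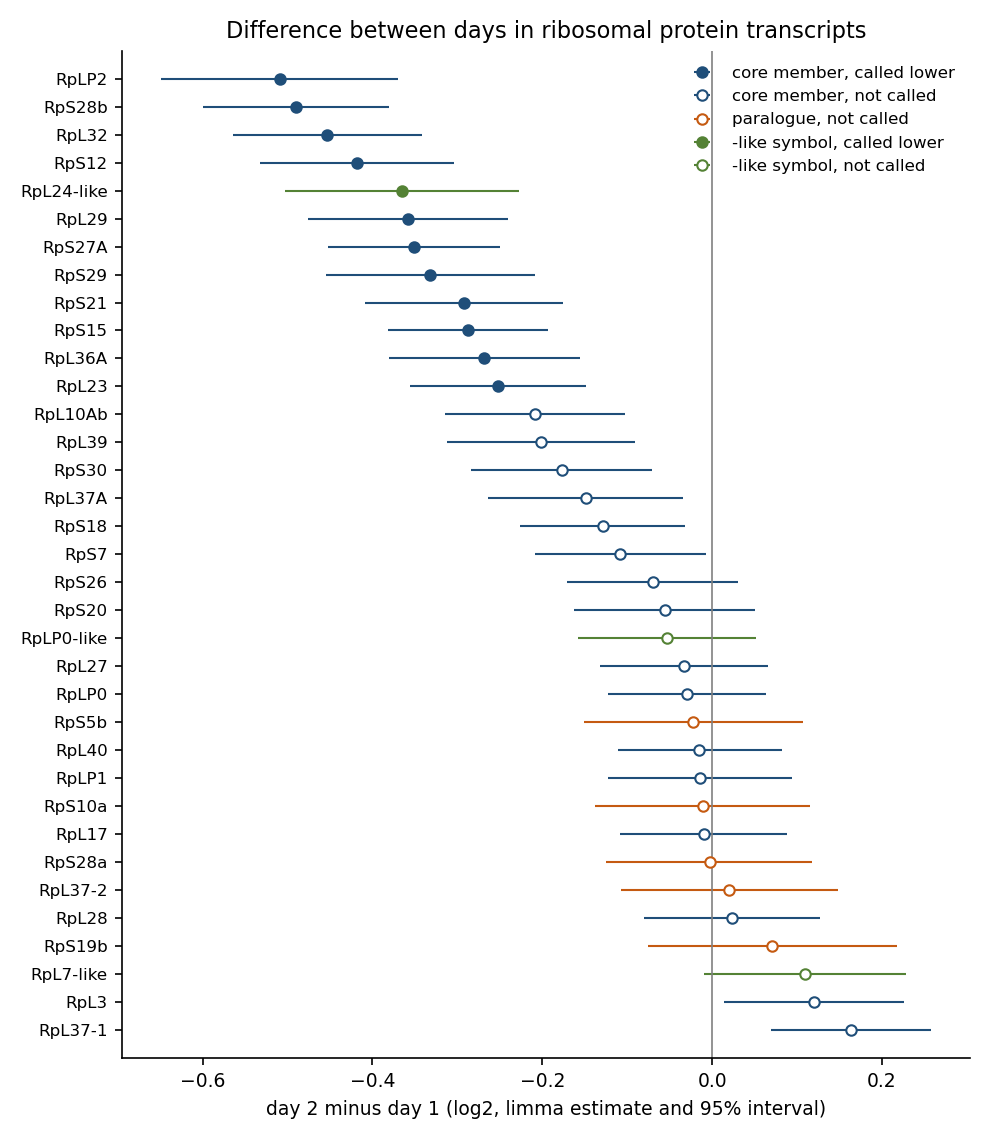
Difference between days (horizontal axis, log2, day 2 minus day 1) for each of the 35 tested members (vertical axis), as the limma estimate with its 95% interval. Filled points are the 12 members called lower, and colours mark core proteins, paralogues and -like symbols. The estimates run from -0.51 for RpLP2 to 0.16 for RpL37-1 without a gap, and the paralogues sit near 0.

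The stalk of the large subunit, which draws elongation factors to the ribosome, is made of a base protein, RpLP0, and the acidic proteins RpLP1 and RpLP2. RpLP2 had the largest difference of all members. Its lowest, median and highest levels were 11.67, 11.73 and 11.83 log2 on day 1 and 11.05, 11.22 and 11.44 log2 on day 2, so that the days did not overlap. It was 1.42-fold lower on day 2 (-0.51 ± 0.06 log2, SE, limma adjusted p = 0.00216), with differences from -0.68 log2 at 18 h to -0.23 log2 at 22 h. Its partners showed no such shift. RpLP1 lay at 12.83, 12.87 and 12.89 log2 on day 1 and at 12.74, 12.85 and 13.03 log2 on day 2, with a difference of -0.01 log2 (95% interval -0.12 to 0.09). RpLP0 ranged from 12.52 to 12.58 log2 on day 1 and from 12.47 to 12.57 log2 on day 2, with a difference of -0.03 log2 (95% interval -0.12 to 0.06). Both overlapped widely between the days, and neither was called. The intervals of RpLP1 and RpLP0 do not reach that of RpLP2 (-0.65 to -0.37), although differences between probe sets can also come from how steeply each responds to its transcript.

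RpL32, also named rp49, is a common loading control in fly work and served as one in the northern blots of the study. On these arrays it was among the members that fell most. Day 1 gave 12.81, 12.88 and 12.95 log2 (lowest, median, highest) and day 2 gave 12.29, 12.44 and 12.56 log2, with no overlap. The difference was -0.45 ± 0.05 log2, or 1.37-fold (95% interval -0.56 to -0.34, limma adjusted p = 0.000956), and RpL32 was lower at each of the 6 times, by 0.60 log2 at 10 h and by 0.32 log2 at 6 h at the extremes. An exact permutation test over the 64 swaps of day within times gave p = 0.0312, two-sided, the smallest that 6 pairs allow. Any probe set lower or higher at all 6 times reaches this value, as 4.40% and 5.38% of all tested probe sets did. The difference was -0.43 log2 in the subjective cryophase and -0.47 log2 in the subjective thermophase.

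The other large subunit proteins called were RpL29, RpL36A and RpL23. RpL29 held between 12.03 and 12.11 log2 on day 1 and fell to between 11.51 and 11.85 log2 on day 2, with medians of 12.07 and 11.73 log2 (difference -0.36 ± 0.05, adjusted p = 0.00605). RpL36A, which lies near the exit site of tRNA, had 11.82, 11.87 and 11.92 log2 against 11.49, 11.59 and 11.74 log2 (difference -0.27 ± 0.05, adjusted p = 0.0223). RpL23, at the face where the subunits join, had 11.05, 11.12 and 11.18 log2 against 10.74, 10.85 and 11.003 log2 (difference -0.25 ± 0.05, adjusted p = 0.0198). In all 3 the highest array of day 2 stayed below the lowest of day 1. The calls of RpL36A and RpL23 were lost when some pairs of arrays were left out, and that of RpL29 was kept whichever pair was left out.

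In the small subunit the largest difference was in RpS28b, whose product sits at the channel through which mRNA leaves. Its 6 arrays of day 1 spanned only 12.00 to 12.09 log2 (median 12.04), and those of day 2 lay at 11.45, 11.57 and 11.66 log2. The difference was -0.49 ± 0.05 log2, 1.40-fold, with the lowest adjusted p of all members (0.000552). RpS12, which in flies takes part in cell competition, had 11.53, 11.55 and 11.62 log2 on day 1 and 10.91, 11.19 and 11.26 log2 on day 2 (difference -0.42 ± 0.05, adjusted p = 0.00208). Its lowest array was AA34, and the days did not overlap in either gene. RpS27A, made as a fusion with ubiquitin, had 11.83, 11.86 and 11.93 log2 against 11.40, 11.54 and 11.62 log2 (difference -0.35 ± 0.05, adjusted p = 0.00285). RpS15, of the head of the small subunit, had 12.51, 12.59 and 12.64 log2 against 12.19, 12.31 and 12.38 log2 (difference -0.29 ± 0.04, adjusted p = 0.00585). RpS21 had 12.50, 12.57 and 12.61 log2 against 12.10, 12.27 and 12.44 log2 (difference -0.29 ± 0.05, adjusted p = 0.0175). These 3 did not overlap between days either, though the call of RpS21 was lost without the 10, 14 or 18 h pair. RpS29 was the exception among the members called, since its day 1 range of 8.01 to 8.37 log2 overlapped that of day 2, 7.56 to 8.08 log2 (difference -0.33 ± 0.06, adjusted p = 0.0114), and its call was lost without the block (adjusted p = 0.0544) or without the 2, 10 or 18 h pair.

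**Figure D2:**
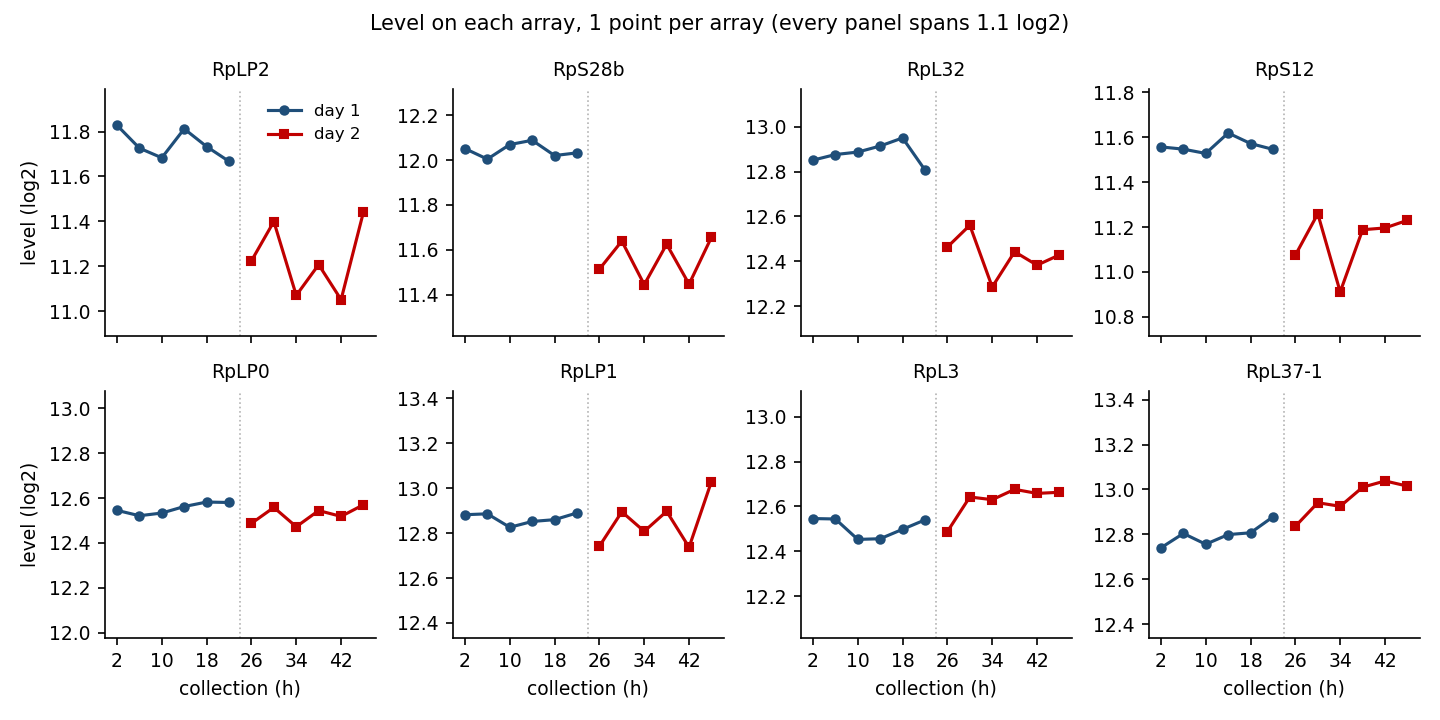
Level (vertical axis, log2) of 8 core members on each array against collection time (horizontal axis, h), with 1 point per array, day 1 in blue and day 2 in red, and panels of equal span. RpLP2, RpS28b, RpL32 and RpS12 step down between AA22 and AA26. RpLP0 and RpLP1 overlap between the days with a wider spread on day 2. RpL3 and RpL37-1 lie higher on most arrays of day 2.

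A further set of core genes had lower means on day 2 without passing the adjustment. RpL10Ab, of the mobile stalk beside the tRNA exit site, had 12.49, 12.55 and 12.59 log2 on day 1 and 12.24, 12.36 and 12.43 log2 on day 2 (difference -0.21, adjusted p = 0.0601). RpL39, which lines the tunnel of the growing peptide, had 11.21, 11.27 and 11.31 log2 against 10.999, 11.03 and 11.18 log2 (difference -0.20, adjusted p = 0.0778). Neither overlapped between days. RpS30, RpL37A, RpS18 and RpS7 followed with differences of -0.18, -0.15, -0.13 and -0.11 log2, and RpL10Ab and RpS30 were called once AA46 was left out. RpS26, RpS20, RpL27, RpL40 and RpL17 lay between -0.07 and -0.01 log2 and RpL28 at 0.02 log2, all with 95% intervals that include 0.

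RpL37-1 and RpL3 lay on the other side of 0. RpL37-1 had 12.74, 12.80 and 12.88 log2 on day 1 and 12.84, 12.98 and 13.04 log2 on day 2, and was the only member higher at all 6 times (5.38% of all tested probe sets). Its difference was 0.16 ± 0.04 log2 (95% interval 0.07 to 0.26, adjusted p = 0.0923). RpL3, near the site where peptide bonds form, had 12.45, 12.52 and 12.55 log2 against 12.49, 12.65 and 12.68 log2, with a difference of 0.12 ± 0.05 log2 (adjusted p = 0.272). The days overlapped in both, in RpL3 only through AA26, which at 12.49 log2 was its one low array on day 2.

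None of the 5 tested paralogues was called, with differences of -0.02 to 0.07 log2. For RpS28a, the copy of RpS28b, the arrays of day 1 spanned 5.03 to 5.27 log2 and those of day 2 spanned 4.996 to 5.20 log2, a difference of 0.00 log2 with a 95% interval of -0.13 to 0.12. That interval does not reach the one of RpS28b (-0.60 to -0.38). RpL37-2, at 6.40 to 6.56 log2 on day 1 and 6.32 to 6.73 log2 on day 2, differed by 0.02 log2 (95% interval -0.11 to 0.15). The levels of these probe sets are low, where RMA compresses differences. The others were RpS5b (-0.02 log2), RpS10a (-0.01 log2) and RpS19b (0.07 log2). The 2 paralogues below the filter differed by -0.01 log2 (RpL10Aa) and -0.09 log2 (RpL22-like), with no test.

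Of the -like genes, RpL24-like was called lower. It had 8.02, 8.09 and 8.25 log2 on day 1 and 7.52, 7.77 and 7.96 log2 on day 2, without overlap (difference -0.37 ± 0.06, adjusted p = 0.0128), and its call was lost without the 2, 10 or 18 h pair. RpLP0-like differed by -0.05 log2 and RpL7-like, a relative of RpL7, by 0.11 log2 (adjusted p = 0.685 and 0.389).

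The fall was already present at AA26 and was uneven over the arrays of day 2. Relative to each gene's own mean, the median of the 12 called members lay between 0.14 and 0.22 log2 on the 6 arrays of day 1. On day 2 it was -0.22 log2 at AA26, -0.08 at AA30, -0.33 at AA34, -0.12 at AA38, -0.20 at AA42 and -0.14 at AA46. At matched times, all 12 were lower on day 2 at each time, with medians of -0.25 log2 at 6 h and -0.53 log2 at 10 h as the extremes. The 12 were called from this same difference, so their agreement over the times adds no separate evidence. The 16 core genes that were not called dipped on the same arrays, with medians of -0.11 log2 at AA26, -0.08 at AA34 and -0.07 at AA42 and of 0.02 to 0.05 log2 at AA30, AA38 and AA46. Between pairs of core genes, the median correlation over the 12 arrays was 0.63, and 0.50 once the mean of each day was removed. These correlations describe the same 12 arrays and share whatever differs between them.

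**Figure D3:**
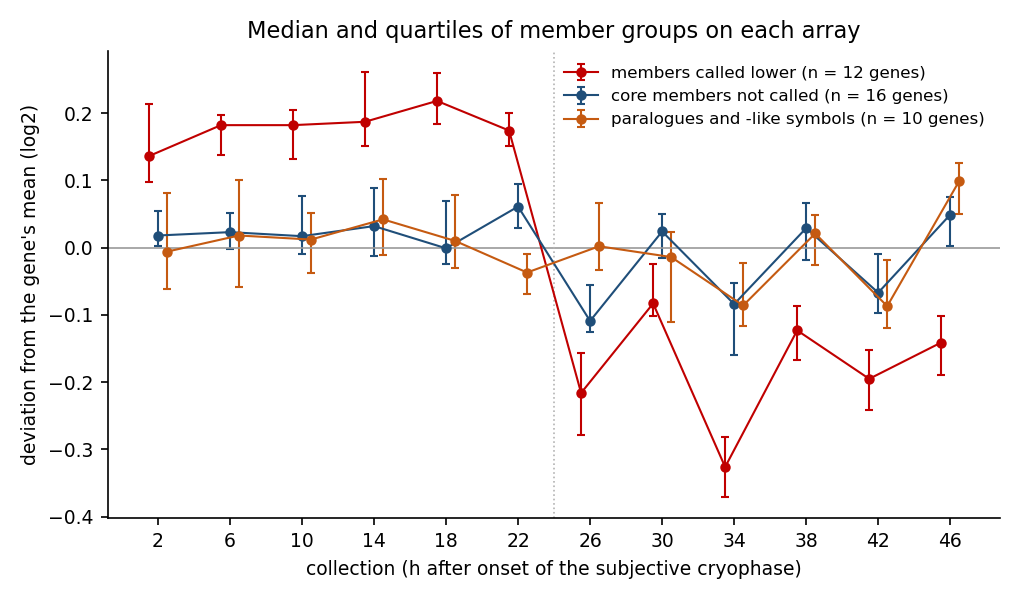
Deviation from each gene's mean (vertical axis, log2), as the median (points) and quartiles (bars) of 3 sets of members, against collection time (horizontal axis, h). The paralogue and -like set holds 10 genes, of which RpL24-like is also among the 12 called. The median and quartiles of the called members, a set chosen by this difference, lie above 0 throughout day 1 and below 0 throughout day 2. Single members can cross 0. AA26, AA34 and AA42 are low in the core genes of both sets.

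Signs of RNA quality moved with some arrays. The 3′ minus 5′ difference of the eIF-4a control probe sets was 2.42 to 2.70 log2 on day 1, 2.97 at AA26, 2.90 at AA30, 2.23 to 2.53 from AA34 to AA42, and 2.54 at AA46. For GAPDH it was 2.06 to 2.26 log2 on day 1, 2.48 and 2.54 at AA26 and AA30, 2.19 to 2.32 from AA34 to AA42, and 2.36 at AA46. For actin it was 1.98 to 2.69 log2 on day 1 and 2.25 to 2.70 log2 on day 2. AA26 and AA30 thus lay above the day 1 range of eIF-4a and GAPDH, and GAPDH exceeded its range slightly on some later arrays. The part of these shifts in the day differences was not tested.

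Differences can be flattened near the top of the signal range, where many core probe sets lay. Over the 27 core probe sets, mean signal and day difference had a correlation of 0.40. All 6 core probe sets with signals above the highest called one, those of RpS7, RpS26, RpS20, RpL17, RpLP1 and RpL37-1, had differences between -0.11 and 0.16 log2. By its definition this set holds no called member. The other 10 core probe sets not called had signals within the span of the called ones and differences of -0.21 to 0.12 log2. Signal also depends on how well each probe binds, so that this is no order of abundance between genes, and the part of signal in the differences was not tested.

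Time of day was the second question, since the study followed 24-h rhythms after the temperature cycle. Ribosomal protein transcripts varied little with time of day. F24, the share of a gene's variance over the 12 arrays that follows a 24-h cosine, had a median of 0.05 in the 35 members and 0.02 in the 27 core genes, against 0.14 over all tested probe sets. The fitted change from trough to peak had a median of 0.05 log2, against 0.10 log2 over all. At a local permutation p under 0.05 there was 1 member of 35, where 6.13% of all tested probe sets passed, and after adjustment none of either passed. The 1 member was RpLP0-like, with F24 of 0.54, a change of 0.22 ± 0.07 log2 from trough to peak, a peak within the subjective cryophase at 5.99 ± 1.19 h and permutation p = 0.0277 (adjusted p = 0.716). A limma cosinor test called no member (0.296% of all), with 1 member at an unadjusted p under 0.05 (5.64% of all).

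Removing the mean of each day, which takes out the step between days, raised the median F24 of the members to 0.10, against 0.17 over all tested probe sets. Then 2 members passed at a local permutation p under 0.05, against 9.77% of all: RpLP0-like (permutation p = 0.0193) and RpS29 (F24 of 0.57, permutation p = 0.0299). RpS29 in the deposited values had F24 of 0.27, a change of 0.34 ± 0.18 log2 and a peak at 16.9 h in the subjective thermophase (permutation p = 0.242). RpL32 had F24 of 0.00 (permutation p = 0.996). Averaged over both days, core genes spanned 0.07 to 0.39 log2 between times of day, with a median of 0.13. The highest time was 22 h in 12 and 6 h in 10 of the 27, and the lowest was 10 h in 13, the time of AA34. Relative to each gene's own mean, the core median was 0.06 to 0.11 log2 on day 1, with 0.07 at AA10. At AA34 it was -0.20 log2, so the low at 10 h came from day 2. Core genes share what differs between arrays, so these counts are not independent. The day difference itself was not shown to differ between phases. The contrast of thermophase minus cryophase passed for none of the 35 members with limma after adjustment, nor at an unadjusted p under 0.05 with RpL24-like nearest, against 2.58% of all tested probe sets at an unadjusted p.

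The last collection was examined on its own because its array stood apart. AA46 fell outside the range of the other 11 arrays in 5 of 35 members, while 44.0% of all tested probe sets did so. There were 4 above (25.1% of all) and 1 below (18.9% of all). RpLP1 reached 13.03 log2 against 12.74 to 12.90 on the others. RpL37-2 reached 6.73 log2 against 6.32 to 6.56. The paralogues RpS10a (4.36 log2 against 4.11 to 4.34) and RpS19b (5.76 log2 against 5.37 to 5.76) passed their highest other array narrowly, and RpL40, at 12.34 log2 against 12.35 to 12.49, lay just below its lowest. With 1 array there is no test of these values. Furthest below the mean of the other arrays, but within their range, were RpL32 (-0.25 log2), RpL29 (-0.24 log2), RpS29 (-0.22 log2) and RpS21 (-0.20 log2).

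AA46 and AA22 also give a pair that the fit to the other 5 times does not use. That fit called 14 members lower, the 12 above with RpL10Ab and RpS30 (1.87% of all tested probe sets). In all 14, AA46 lay below AA22, by a median of -0.31 log2 (-0.48 for RpS29 to -0.02 for RpS30), and the median difference over the other 5 times was -0.32 log2. Of the 209 probe sets called lower from those 5 times over the whole array, 184 (88.0%) were also lower at AA46 than at AA22, so that the members' count was close to this share. The 5 tested paralogues were higher at AA46 than at AA22, by 0.10 log2 for RpS5b to 0.40 log2 for RpS19b, on an array where 55.9% of all tested probe sets were higher than at AA22.

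**Figure D4:**
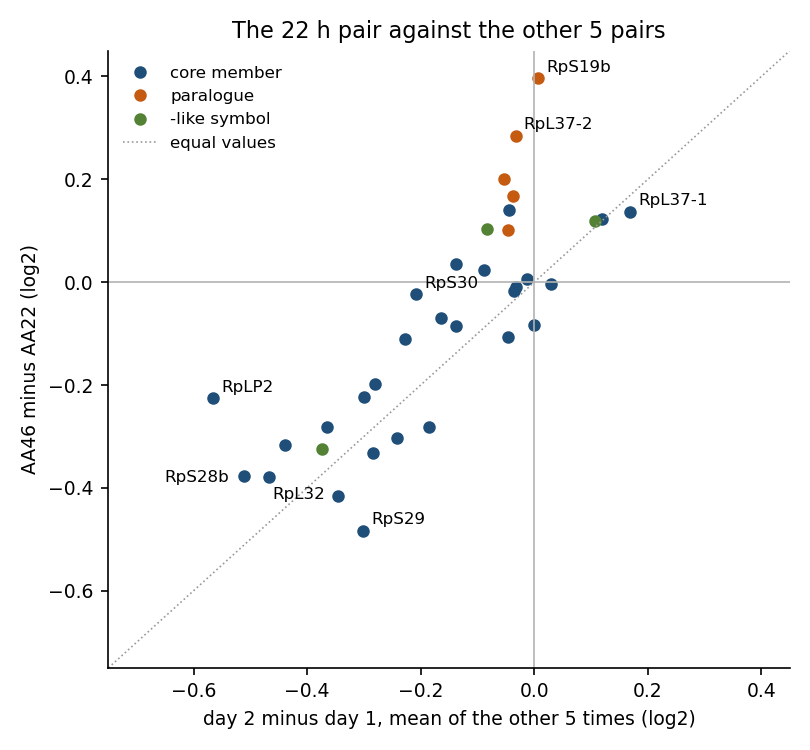
AA46 minus AA22 (vertical axis, log2) against the mean difference between days over the other 5 times (horizontal axis, log2) for the 35 tested members, coloured by class, with 1 point per gene and a dotted line of equal values. Members that were lower over the other 5 times were mostly lower at 22 h too, and the 5 paralogues lie above 0 at 22 h.

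Other parts of the translation machinery were read from the same fit. Of 64 genes of the mitochondrial ribosome, 6 were called lower (1.20% of all tested probe sets) and 0 higher, with a median of -0.07 log2. A lower mean on day 2 was found in 47 of 64 (48.9% of all). At an unadjusted p under 0.05, 22 were lower and 1 higher (7.26% and 7.50% of all). The 6 called were mRpS18A (-0.37 log2), mRpL23 (-0.35), mRpS28 (-0.30), mRpL42 (-0.27), mRpL17 (-0.22) and mRpL43 (-0.20). In 11 of the 64 the arrays of day 2 all lay below those of day 1 (1.75% of all). Of 25 translation factors, 1 was called lower, eEF5 (-0.42 ± 0.06 log2, adjusted p = 0.00538), the factor that helps ribosomes over stretches of proline, and 0 higher, with a median of 0.04 log2. By limma, no gene was called in either direction among 27 listed as ribosome assembly factors (median 0.00 log2). The same held for 14 genes listed under the TOR and Myc pathways (-0.01 log2) and 6 RNA polymerase I subunits (-0.03 log2). The assembly list also names Rrp1, and the TOR and Myc list sesB, genes better known for other roles. At the unadjusted threshold these lists had 2 lower and 2 higher, 1 and 1, and 0 and 0. The translation factors had 3 lower and 4 higher at that threshold. Rack1, a protein of the small subunit outside the symbol pattern, differed by 0.08 ± 0.05 log2 (adjusted p = 0.496). Whether the cytosolic and mitochondrial sets differ was not tested.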

How the data were processed

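The authors deposited log2 expression values computed with RMA (background subtraction, quantile normalization, median polish). No source used here names its version. Because all arrays are forced to 1 distribution (medians of 5.64 to 5.67 log2), a shift common to most transcripts is lost. Differences at high and low levels can be compressed. With 12 arrays, precision is limited by their number.

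Of 14010 probe sets, 44 were controls, 12442 had 1 symbol (12393 updated through the gene identifier against RefSeq, assembly Release 6 plus ISO1 MT, 49 kept), 327 had several and 1197 none. No member gene had more than 1 probe set, and 2 probe sets with several symbols, 1 of them of the pattern, were not used. Following the methods of the study, probe sets with over 50% of values above the 20th percentile, taken per array, were tested (11156).

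Days were compared by limma (version 3.58.1) blocked on the time of day from the labels (6 levels), and p-values were adjusted by Benjamini and Hochberg's method over all tested probe sets. F24 used 100000 random time orders, one-sided. Alternatives were no block, array weights, median centring, quantile normalization, a linear scale, other filters, a prior trend, a cosinor test, removal of day means or trend, and leaving out arrays. The main limma fit of the day difference and the F24 test were tried on simulated data, with errors drawn independently for each array. Members, lists and tests were chosen with earlier results of these data known. The rule named RpL32, the 8 highest and 8 lowest day differences (only 6 were above 0), the 5 lowest rhythm p-values, the 4 extremes of AA46 on each side and the paralogue pairs (25 genes), and the other 12 members were named after their values were seen. Sequences were not analysed here.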

Additional observations from a re-analysis of the deposited data

Results flagged for a closer look

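Among 74 sets of 6 arrays, 1 for each member and day, 2 held an array far from the rest. In these, the gap to the nearest array took up most of the range, past Dixon's critical value. By chance about 1 in 20 sets would pass, so 2 of 74 is no more than chance gives. RpL3 on day 2 had its lowest level at AA26, 12.49 log2, against 12.63 to 12.68 log2 on the other 5 arrays (gap over range 0.755). RpS5b on day 1 had its highest level at AA14, 6.47 log2, against 6.06 to 6.17 log2 on the other 5 (gap over range 0.717).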

How the results depend on the processing

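Over 23 alternative fits of the day difference, 7 of the 12 members called lower kept the call in each: RpL29, RpL32, RpLP2, RpS12, RpS15, RpS27A and RpS28b. With the block, leaving out either array of a pair gave the same fit, so fewer than 23 of these fits are distinct. The median difference of the members stayed negative, and was -0.18 log2 with core members alone, a set added after seeing the data. Since the block pairs arrays, leaving out an array removes its pair. The count of members called lower was then 7 to 14: 7 without the 10 h or the 18 h pair, 8 without the 2 h pair, 10 without the 14 h pair, 11 without the 6 h pair and 14 without the 22 h pair, with fewer arrays in each. RpL23 and RpL36A were lost without 4 of the pairs, and RpS21, RpS29 and RpL24-like without 3. Without the replicate block 13 members were called lower, RpS29 being lost (adjusted p = 0.0544) and RpL10Ab and RpL39 gained, and pairing comes from the time of day. Array weights and a prior trend gave 15. Called higher was 1 member, RpL37-1, under array weights, quantile normalization, a filter at the 50th percentile or a prior trend, against 0; the cause was not tested. Members with a local permutation p under 0.05 for a rhythm numbered 2 with day means removed and 0 with core members alone. They numbered 0 to 1 when an array was left out (0 without AA6, AA18, AA30 or AA42). RpLP0-like passed only this unadjusted threshold, and that result rests on each of those arrays. AA46 lay outside the range of the others in 2 core members. AA46 is 1 array, and each time of day was sampled once a day, so neither its values nor a single time has an error of its own.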
